A study of Drosophila melanogaster with 11 samples.

Results

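The transcripts described here had little signal in embryo input RNA and the highest mean signal, among such transcripts, in the control RIPs of a Smaug RIP-Chip experiment. They were chosen by these measured values. Of 15433 transcripts on the array, 7717 had a mean input log2 signal at or below the median of all transcripts (6.85), and the 200 of them with the highest mean log2 signal over the 3 control RIP replicates were taken as members. The remaining 7517 low-input transcripts served for comparison. The members' mean control RIP signal lay between 7.92 and 8.71 on the log2 scale, with a median of 8.08. The line is not a natural gap. The 10 members nearest to it had means of 7.92 to 7.93, and the 10 transcripts just below it had means of 7.91. Every statement on input or control RIP signal below therefore describes the choice itself, except where a replicate that the choice did not use is named.

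The study asked which mRNAs the RNA-binding protein Smaug binds in the early Drosophila embryo. Smaug RIPs used a guinea pig anti-Smaug antibody on protein A beads, control RIPs used normal guinea pig serum on the same kind of beads, and input was a pooled reference of total RNA. All samples came from wild-type embryos collected 0 to 3 h after egg laying at 25 °C, and no genotype, treatment or age differed between the groups. The labels give the strain as Oregon-R, whereas the study's general methods name the w1118 stock. There were 4 Smaug RIP arrays (replicates 1a, 1b, 2 and 3), 4 control RIP arrays numbered the same way, and 3 input arrays. The labels call the inputs technical replicates, whereas the study's replicate comparison, which includes the inputs, calls replicates 1, 2 and 3 biological. Arrays 1a and 1b were technical replicates of 1 biological replicate and were averaged, which left 3 replicates per RIP. All 4 Smaug RIPs were labelled with Cy5. Of the control RIPs, 1a and 2 carried Cy5, whereas 1b and 3 carried Cy3, as did all inputs. Scan names in the files place each Smaug RIP on a slide with the control RIP of its own number, 4 slides in all. The third replicate of both RIPs was read as Cy5 and Cy3 of a single array. The slide of replicate 2 also held the inputs, of which input 1 was read on the array used for Smaug RIP 2, and input 2 on the one used for control RIP 2.

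In an RNA co-immunoprecipitation, the antibody pulls down a protein together with the RNA bound to it. Beads coated with non-immune serum carry antibodies with no chosen target, and RNA that sticks to beads, tubes or serum is recovered in this control as well as in the specific pull-down. An abundant RNA offers more molecules to stick, so carry-over usually follows abundance, and transcripts that are scarce in the starting extract would not usually be prominent in the control. On a microarray, a transcript's signal also contains light from the glass, from dye and from other RNAs that hybridize in part to its probes, and such light has its own variation from array to array.

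The files identify transcripts by FlyBase transcript number and pair none of them with a gene. None of the 200 members had a gene name in the RefSeq gene table used here, so neither their functions nor their sequences are described. Markers of maternal, zygotic or adult tissues were not used here for the same reason. Members are named below by transcript number only.

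On average over replicates, the members had a median Smaug RIP signal of 7.42 ± 0.10, a control RIP signal of 8.08 ± 0.43 and an input signal of 6.28 ± 0.02 (log2, SD of the medians of 3 replicates). By the labels the inputs are technical replicates, so their SD does not measure the same spread as those of the RIPs. The other low-input transcripts had 7.14 in Smaug RIPs, 7.20 in control RIPs and 6.19 in input. Over all transcripts the median was 7.32 for Smaug RIPs, against 7.35 for control RIPs. A member's mean control signal was thus high for a low-input transcript but moderate for the array. The lowest member lay 1.48-fold above the median of all transcripts, 1 of the 200 exceeded the 95th percentile of mean control RIP signal (8.65), and 2180 of the 7716 transcripts above the input median (28.3%) reached the same level as the lowest member.

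The members' signal differed from array to array, most of all among control RIPs. In Smaug RIPs their median was 7.14 on array 1a, 7.28 on 1b, 7.45 on 2 and 7.49 on 3, against 6.93, 7.05, 7.14 and 7.17 for the other low-input transcripts. Members were higher by 0.21 to 0.33 on each of these 4 arrays. In control RIPs their median was 7.57 on 1a, 7.54 on 1b, 8.13 on 2 and 8.43 on 3, against 7.07, 7.01, 7.16 and 7.24 for the others. The distance was 0.49 and 0.54 on arrays 1a and 1b, and 0.97 and 1.19 on arrays 2 and 3. Arrays 2 and 3 carried different dyes (Cy5 and Cy3). Each of them also counted for more in the choice than 1a or 1b, which were averaged first. In the 3 inputs members had medians of 6.24 to 6.27, and the others 6.14 to 6.19.

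**Figure D1:**
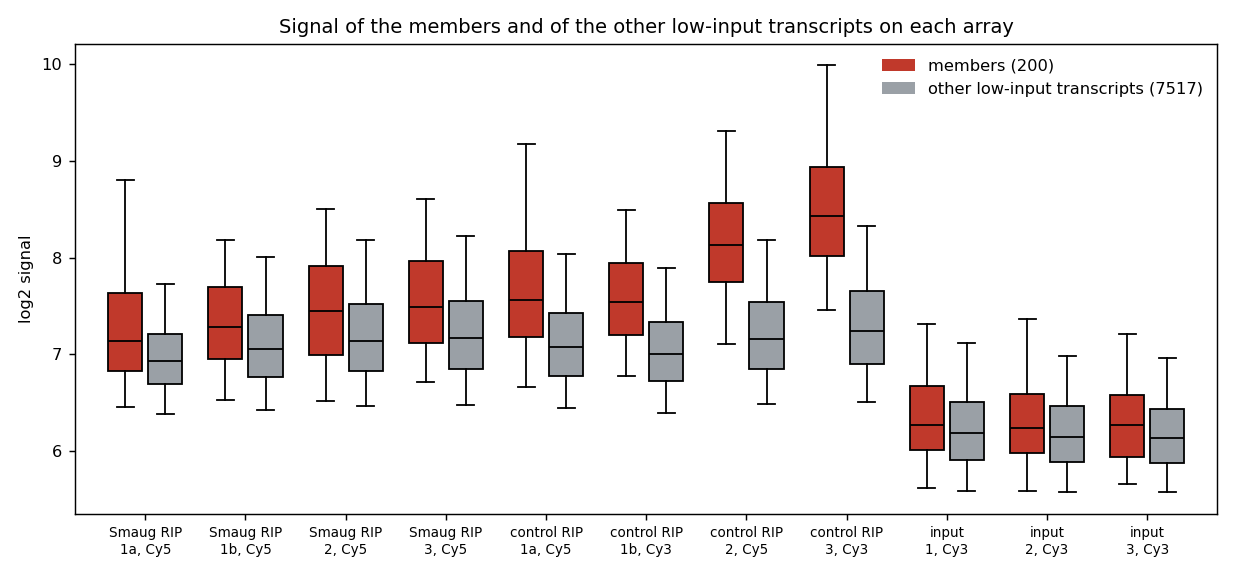
Log2 signal (vertical axis) of the 200 members (red) and the 7517 other low-input transcripts (grey) on each of the 11 arrays, with group, replicate and dye below. Boxes span the quartiles with the median as a line, and whiskers run to the 5th and 95th percentiles. The members' boxes lie highest on control RIPs 2 and 3, with medians of 8.13 and 8.43.

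The place of members within each array showed the same. In Smaug RIPs, 83 of 200 members lay above the median of all transcripts on array 1a, 98 on 1b, 112 on 2 and 121 on 3. Of the other low-input transcripts, 20.9%, 31.7%, 37.0% and 38.0% did so on these arrays. In control RIPs, 135 members lay above the array median on 1a, 135 on 1b, 178 on 2 and 194 on 3. The shares of the other low-input transcripts were 31.5%, 27.0%, 37.2% and 42.7%. The top 5% of an array held 6, 0, 1 and 3 members in Smaug RIPs 1a, 1b, 2 and 3, and 8, 0, 23 and 66 in control RIPs 1a, 1b, 2 and 3. Of the other low-input transcripts, 0.01%, 0.01%, 0.19% and 0.39% were there in Smaug RIPs. In control RIPs their shares were 0.07%, 0.03%, 0.28% and 1.38%. No member was in the top 5% by mean Smaug RIP signal. Control RIP 3 thus put 66 members among its brightest transcripts, whereas control RIP 1b, also labelled with Cy3, put none there. The lower bound of the top 5% was 8.75 on control RIP 3 and 9.52 on 1b, where the highest member stood at 9.00. Array 1b also counted for less in the choice than array 3.

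The high mean of most members rested on 1 or 2 of the 3 control RIP replicates. A replicate was counted as reaching the members' level where its signal was at least 7.92, the lowest mean among members. All 3 replicates reached it for 14 members (7.0%), 2 replicates for 119 and 1 replicate for 67. Because this level is the lowest of the means used for the choice, these counts follow in part from the rule. Among the 1450 transcripts above the input median whose mean control RIP signal lay in the members' range, all 3 replicates reached it for 274 (18.9%), and 1 replicate for 284 (19.6%). That set was not matched in level: its median of mean control RIP signal was 8.17, against 8.08 for members. Replicate 3 was the highest for 109 of the 200 members, replicate 2 for 67 and replicate 1 for 24. The other low-input transcripts had the same order, with 43.9%, 34.5% and 21.6% for replicates 3, 2 and 1. Those above the input median in the same range had the reverse order, with 21.2%, 28.9% and 49.9%. Replicate 1 was the mean of arrays 1a and 1b, whereas replicates 2 and 3 were single arrays. The replicates were thus not compared on equal terms in these counts. In the median member, the highest replicate stood at 8.78, the middle one at 8.03 and the lowest at 7.40. At least 1 control RIP replicate lay below that replicate's median of all transcripts for 74 members (37.0%). This held for 95.6% of the other low-input transcripts and for 25.1% of those above the input median in the same range.

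The spread over control RIP replicates was correspondingly wide. The median SD over the 3 replicates was 0.72 for members, 0.39 for the other low-input transcripts and 0.63 for the transcripts above the input median in the same range. Over Smaug RIP replicates, which played no part in the choice, it was 0.43, 0.36 and 0.51 for these sets. For 71 members (35.5%) the highest control RIP replicate exceeded the next by more than 1 on the log2 scale. This held for 10.9% of the other low-input transcripts and for 21.7% of those above the input median in the same range.

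**Figure D2:**
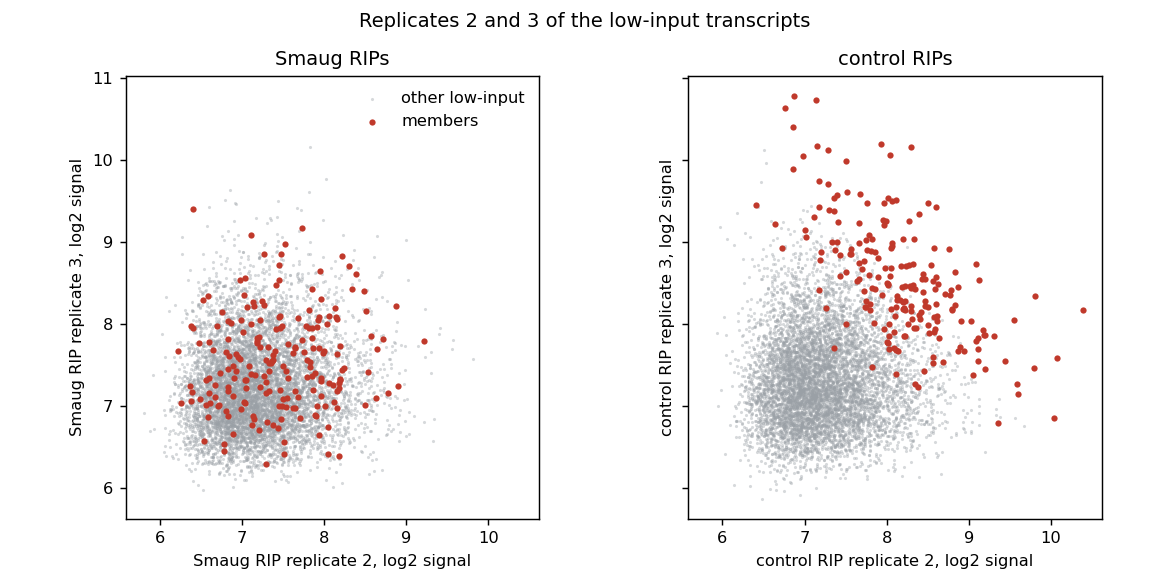
Log2 signal of replicate 3 (vertical axes) against replicate 2 (horizontal axes) in Smaug RIPs (left) and control RIPs (right), for members (red) and the other low-input transcripts (grey). In control RIPs members form a band along the falling diagonal that the choice by the mean imposes, whereas in Smaug RIPs they are mixed with the other transcripts.

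The 2 members with the highest mean show how the replicates compared. FBtr0077402, measured by 2 probes, had a control RIP signal of 8.30 on 1a, 8.76 on 1b, 9.55 on 2 and 8.04 on 3. Its Smaug RIP signal was 7.61 on 1a, 7.26 on 1b, 8.63 on 2 and 7.10 on 3, and its input signal 6.88, 6.01 and 6.26. Every control RIP array reached the members' level for this transcript, and every Smaug RIP lay below the control RIP of the same number. FBtr0073888, measured by 4 probes, had 8.85, 9.00, 9.44 and 7.54 in control RIPs 1a, 1b, 2 and 3, so that control RIP 3 lay below the rest by more than 1. Its Smaug RIP signal was 9.14, 7.51, 8.11 and 7.26 on the arrays of the same order. Array 1a was high for it in both RIPs, and array 1b, which carried the same Smaug RIP RNA, was not high in the Smaug RIP.

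The 14 members that reached the level in all 3 control RIP replicates had a median of 7.66 for mean Smaug RIP signal (range 7.15 to 8.34), against 8.26 for mean control RIP signal. For 1 of them, all 3 Smaug RIP replicates also reached 7.92. They include 4 transcripts measured by 1 to 3 probes. Their median input signal was 6.40, near that of all members (6.28).

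To read the control signal on data that played no part in the choice, the rule was repeated on 2 control RIP replicates and the 200 transcripts so chosen were read on the third. With replicate 1 held out, the chosen transcripts had a median control RIP signal of 8.35 on the replicates used and 7.27 on the one held out, where the other low-input transcripts had 7.07. With replicate 2 held out, these values were 8.18, 7.32 and 7.17. With replicate 3 held out, they were 8.07, 7.44 and 7.25. In all 3 readings the chosen transcripts stayed above the other low-input transcripts, by 0.20, 0.15 and 0.19 with replicates 1, 2 and 3 held out. These distances were 18.5%, 14.8% and 19.8% of those on the replicates used. The held-out median lay near the median of all transcripts on that replicate, which was 7.31, 7.33 and 7.35 for replicates 1, 2 and 3. Transcripts above the input median in the same range had held-out medians of 8.75, 8.06 and 7.59 on these replicates. Their medians on the replicates used were 8.46, 8.36 and 8.29, somewhat above those of the chosen transcripts.

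The label of high control RIP signal therefore fits the members as a mean over replicates, and the data go against it as a property that each replicate shows. The 200 chosen without replicate 1 shared 141 transcripts with the members, those chosen without replicate 2 shared 103, and those chosen without replicate 3 shared 94. On the held-out control RIP, 0, 2 and 10 of the 200 were in the top 5% with replicates 1, 2 and 3 held out. The shares among the other low-input transcripts were 0%, 0.56% and 2.13%.

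The Smaug RIP of the held-out replicate lay close to the held-out control RIP. Its median was 7.13, 7.38 and 7.33 for the 200 chosen without replicates 1, 2 and 3, against 7.02, 7.14 and 7.17 for the other low-input transcripts. The distances of 0.11, 0.24 and 0.17 were of the size found in the held-out control RIPs. These Smaug RIPs and control RIPs share a slide, and in replicate 3 an array, so they are not independent readings of each other.

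**Figure D3:**
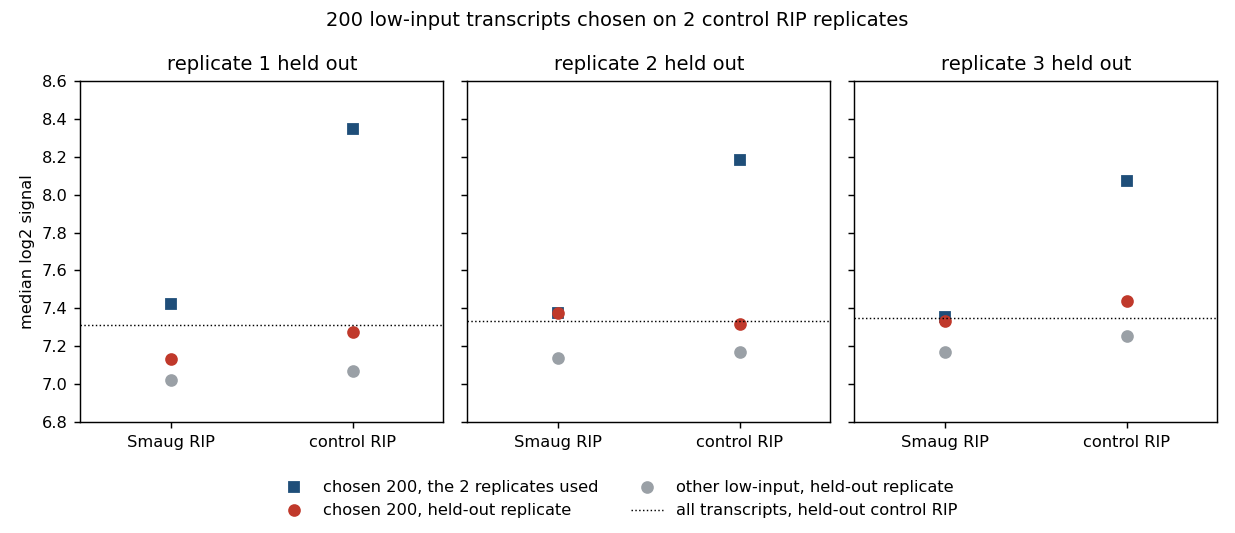
Median log2 signal (vertical axis) of 200 low-input transcripts chosen on 2 control RIP replicates, in Smaug RIPs and control RIPs (horizontal axis), with a panel for each replicate held out. Squares give the replicates used for the choice, red points the held-out replicate, grey points the other low-input transcripts on it, and the dotted line the median of all transcripts in the held-out control RIP. On the held-out control RIP the chosen transcripts stand at 7.27, 7.32 and 7.44.

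The same reading over all low-input transcripts was nearly flat. When the 7717 low-input transcripts were ordered by control RIP signal on 2 replicates and divided into 10 groups of equal size, the highest and the lowest group differed by 1.34, 1.20 and 1.12 on the replicates used, with replicates 1, 2 and 3 held out. On the held-out control RIP they differed by 0.21, 0.18 and 0.23, and on the held-out Smaug RIP by 0.15, 0.27 and 0.22. The transcripts above the input median, treated alike, spanned a wider range from the start, with 2.36, 2.56 and 2.99 on the replicates used. They differed by 2.70, 2.38 and 1.37 on the held-out control RIP and by 2.28, 2.06 and 2.16 on the held-out Smaug RIP.

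**Figure D4:**
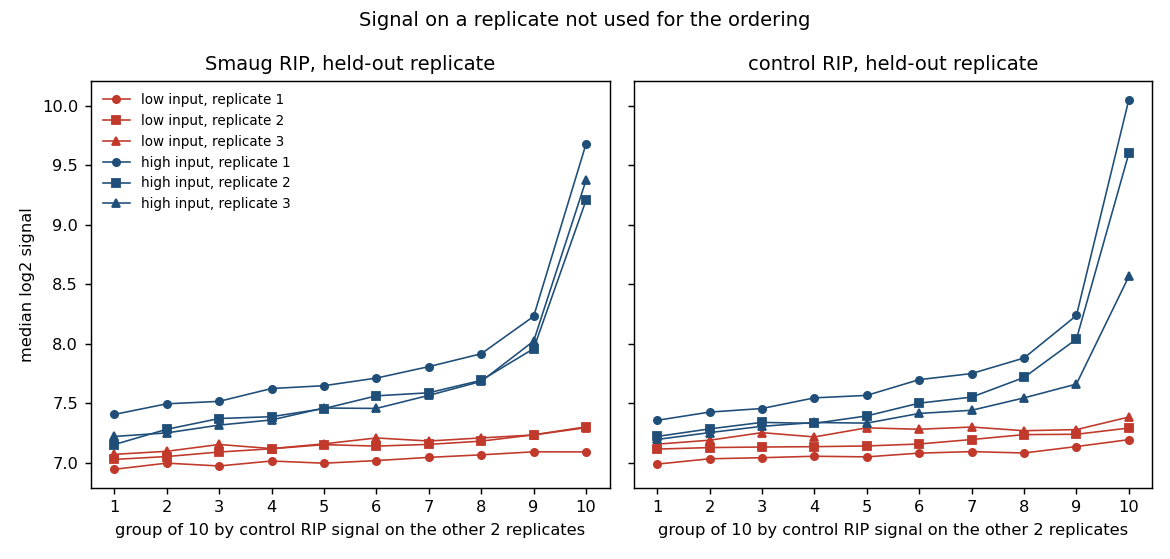
Median log2 signal (vertical axes) on a held-out replicate, in Smaug RIPs (left) and control RIPs (right), for 10 equal groups of the transcripts ordered by control RIP signal on the other 2 replicates (horizontal axes, lowest to highest). Red lines are low-input transcripts and blue lines those above the input median, with a marker for each held-out replicate. The red lines differ by 0.15 to 0.27 between their ends and the blue lines by 1.37 to 2.70. On the replicates used for the ordering, these differences were 1.12 to 1.34 and 2.36 to 2.99.

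The members had a lower signal in Smaug RIPs than in control RIPs, a difference that contains the control RIP values by which they were chosen. The median log2 difference, Smaug RIP minus control RIP, was -0.68 ± 0.31 (SD of the medians of 3 replicates), and single members ranged from -1.62 to 0.24. It was below 0 for 188 members. Its median was -0.05 for the other low-input transcripts and -0.02 for all transcripts. Within slides, the members' median was -0.34 for replicate 1a, -0.21 for 1b, -0.71 for 2 and -0.97 for 3. The 2 larger values belong to the 2 replicates in which the members' control RIP signal was highest.

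On the held-out replicate the difference was no longer large. For the 200 chosen without that replicate, its median was -0.12, 0.10 and -0.10 on replicates 1, 2 and 3. On the same arrays the other low-input transcripts had -0.06, -0.03 and -0.09. Of the 200, 123, 91 and 113 lay below 0, against 55.8%, 52.1% and 55.4% of the others. On the replicates used for the choice, the medians of the same transcripts were -0.996, -0.86 and -0.76.

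No member passed the test between Smaug RIPs and control RIPs. limma with Benjamini-Hochberg adjustment over all 15433 transcripts called 0 members higher, where 0.337% of all transcripts were called higher, and 0 members lower, where 0.013% were. The lowest adjusted p among members was 0.17. At an unadjusted p under 0.05, 0 members were higher (4.21% of all transcripts) and 39 were lower (2.67%). In 36 members every Smaug RIP replicate lay below every control RIP replicate (5.2% of all transcripts), and in 0 members every Smaug RIP replicate lay above (5.88%). The control RIP values entered the choice, which pushes the difference downwards. Nothing about the members is therefore read from these counts, of higher or of lower transcripts.

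With slide as a block and the 8 arrays taken singly, limma called 3 members lower, against 0.324% of all transcripts, and 0 members higher, against 1.71%. This fit counts 1a and 1b, which carried the same RNA, as separate arrays. FBtr0072818, measured by 2 probes, had 7.10, 6.76, 6.37 and 7.24 in Smaug RIPs 1a, 1b, 2 and 3, against 7.37, 8.35, 8.28 and 9.25 in control RIPs. Its groups did not overlap, the difference of the replicate means was -1.62 ± 0.48 (SE), and its adjusted p was 0.17, or 0.030 with the slide block. FBtr0070969, measured by 5 probes, had 6.53, 6.25, 7.30 and 7.16 in Smaug RIPs, against 7.46, 7.27, 8.50 and 9.47 in control RIPs. On every slide its Smaug RIP was the lower of the pair, its difference was -1.50 ± 0.50 (SE), and its adjusted p was 0.32, or 0.037 with the slide block. The third was FBtr0079151, measured by 2 probes and named here after its values were seen. It had 6.52, 6.20, 6.64 and 7.68 in Smaug RIPs, against 7.35, 7.48, 8.54 and 8.72 in control RIPs, with an adjusted p of 0.048 under the slide block. All 3 became members by their control RIP values, and FBtr0072818 and FBtr0070969 were named for the lowest differences. Their differences and p-values are therefore descriptive, and no lower signal in Smaug RIPs is concluded from them.

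The difference was above 0 for 12 members, of which the 2 highest were as follows. FBtr0078005, measured by 4 probes, had 10.26, 7.13, 7.91 and 7.96 in Smaug RIPs 1a, 1b, 2 and 3, against 9.96, 7.59, 7.36 and 7.71 in control RIPs. Both 1a arrays were more than 2 above their 1b partners, which carried the same RNA. Smaug RIP minus control RIP was -0.08, 0.55 and 0.25 for replicates 1, 2 and 3. Its mean difference was 0.24 ± 0.55 (SE), with an adjusted p of 0.98. FBtr0087785, measured by 5 probes, had 7.67, 7.80, 9.22 and 7.79 in Smaug RIPs, against 7.56, 7.74, 7.81 and 8.89 in control RIPs. Its highest arrays were replicate 2 of the Smaug RIPs and replicate 3 of the control RIPs, and its difference was 0.13 ± 0.57 (SE), with an adjusted p of 0.99.

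Dyes could be compared within control RIPs, which held 2 arrays of each. The 4 control RIP arrays lay on 4 slides, so each comparison of dyes is also one of slides. The members' median was 7.95 for the mean of the Cy5 arrays (1a and 2) and 8.03 for the mean of the Cy3 arrays (1b and 3). The median difference of Cy5 minus Cy3 was -0.07, with a range of -2.71 to 2.90, and was -0.00 for the other low-input transcripts. Between the arrays of the same RNA it was 0.03 (1a minus 1b), and between replicates 2 and 3, which differ in both dye and biological replicate, it was -0.18. Dye and replicate cannot be told apart in this last pair, nor dye and slide in either pair. For Smaug RIPs, where 1a and 1b were both Cy5, the median of 1a minus 1b was -0.04 for members. The other low-input transcripts had -0.12 in Smaug RIPs and 0.07 in control RIPs for 1a minus 1b. The Cy5 minus Cy3 difference was above 0 for 90 members and below 0 for 110.

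Members lay far from 0 in both directions of the dye comparison. The difference exceeded 1 in size for 48 members (24.0%), of which 13 were higher in Cy5 and 35 in Cy3. It did so for 4.6% of the other low-input transcripts and for 9.66% of those above the input median in the same range. The Cy5 and Cy3 values were both used in the choice, so these counts are descriptive. With the 8 RIP arrays taken singly and group as a term, limma called 0 members higher in Cy5 (0% of all transcripts) and 0 members lower (0.00648%). The spread in this fit includes the Smaug RIP arrays, and 1a and 1b, of the same RNA, count separately. The lowest adjusted p was 0.15. At an unadjusted p under 0.05, 8 members were higher (2.3% of all transcripts) and 18 lower (2.28%).

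The extremes of the dye comparison were transcripts with few probes and 1 or 2 bright arrays. FBtr0073918, measured by 1 probe, had control RIP signals of 9.10 on 1a and 10.04 on 2 (Cy5), against 6.47 on 1b and 6.86 on 3 (Cy3). The dyes did not overlap, and the difference was 2.90 ± 0.64 (SE) with an adjusted p of 0.15. Its Smaug RIP signals, all in Cy5, were 8.80, 6.51, 7.38 and 6.77 on 1a, 1b, 2 and 3, so that among Smaug RIPs of the same dye 1a was the high one. FBtr0076100, measured by 3 probes, had 10.04 on 1a and 8.35 on 2, against 7.02 on 1b and 7.27 on 3, a difference of 2.05 ± 0.76 (SE). Its Smaug RIP 1a stood at 10.17 and the other Smaug RIPs at 6.53 to 7.72.

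At the other end, FBtr0100465, measured by 1 probe, had 6.60 on 1a and 7.14 on 2 (Cy5), against 8.41 on 1b and 10.73 on 3 (Cy3), a difference of -2.71 ± 0.71 (SE). Its Smaug RIP 3, the Cy5 channel of the same array as control RIP 3, stood at 9.40, whereas the other Smaug RIPs stood at 6.41 to 6.97. FBtr0085126, also measured by 1 probe, had 6.87 on both 1a and 2, against 7.27 on 1b and 10.77 on 3, a difference of -2.15 ± 0.66 (SE). Its Smaug RIP 3 stood at 7.77 and its other Smaug RIPs at 6.82 to 7.69, so the bright value on control RIP 3 had no counterpart in the other channel of that array. The adjusted p was 0.71 for FBtr0100465, 0.78 for FBtr0085126 and 1.00 for FBtr0076100.

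Lists chosen on 1 dye were read on the other. The 200 low-input transcripts with the highest mean of the Cy5 control RIPs had a median of 8.21 on those arrays and 7.39 on the Cy3 control RIPs, where the other low-input transcripts had 7.16. The 200 chosen on Cy3 had 8.27 on those arrays and 7.27 on the Cy5 control RIPs, against 7.16 for the others. The lists shared 17 transcripts, 8.5% of each, and each shared 83 with the members. Each dye was carried by an array of replicate 1, so the lists are not from separate RNA.

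Arrays 1a and 1b give a reading of the same RNA on 2 slides. For members, the median absolute difference between them was 0.44 for Smaug RIP RNA and 0.52 for control RIP RNA. For the other low-input transcripts it was 0.39 and 0.41 in the same order. Of the 8 members in the top 5% of control RIP 1a, none was in the top 5% of control RIP 1b. Among the transcripts above the input median in the same range, 140 were in the top 5% of 1a, 137 in that of 1b, and 48 in both. For 30 members control RIP 1a exceeded 1b by more than 1, and for 7 of these Smaug RIP 1a exceeded Smaug RIP 1b by more than 1 as well (23.3%). This held for 22 of 529 such transcripts among the other low-input transcripts (4.16%) and 22 of 82 among those above the input median in the same range (26.8%). The sets also differed as a whole. Smaug RIP 1a exceeded 1b by more than 1 in 8.5% of all members, and in 2.59% and 13.1% of the other 2 sets in the same order. Of the 8 members in the top 5% of control RIP 1a, 7 had a Smaug RIP 1a signal of 9.26 to 10.44, and the remaining one had 7.82. Control RIP 1a and Smaug RIP 1a were both Cy5 arrays on 1 slide, and the part of slide and of dye in this was not tested.

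Across low-input transcripts, arrays resembled each other little, and the 4 closest pairs shared a slide or an array. Pearson's r over the 7717 low-input transcripts was 0.03 to 0.15 for the 30 pairs of arrays on different slides and of different groups, with a median of 0.07. For the 10 pairs of the same group on different slides that did not carry the same RNA it was 0.05 to 0.15. It was 0.11 between Smaug RIPs 1a and 1b and 0.14 between control RIPs 1a and 1b. The highest values were 0.30 for Smaug RIP 2 with input 1 (1 array), 0.21 for Smaug RIP 1b with control RIP 1b (1 slide), 0.20 for Smaug RIP 1a with control RIP 1a (1 slide) and 0.17 for Smaug RIP 3 with control RIP 3 (1 array). The remaining array shared by 2 samples, control RIP 2 with input 2, gave 0.11, and other pairs on 1 slide went down to 0.03. For the 7716 transcripts above the input median, r between the arrays of the same RNA was 0.84 and 0.85. These correlations are across transcripts of 11 arrays and describe them only.

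Within the members, r was 0.56 between Smaug RIP 1a and control RIP 1a and 0.42 between Smaug RIP 2 and input 1. Between control RIPs 2 and 3 it was -0.64, which the choice by the mean of the replicates imposes in part. Between control RIPs 1a and 1b it was 0.09.

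The number of probes was the other property on which members stood apart, and the rule did not use it. Signals in the files summarise 1 to 5 probes per transcript. Of the members, 36 (18.0%) were measured by 1 to 3 probes, against 5.96% of the other low-input transcripts and 9.25% of all transcripts. Transcripts above the input median in the same range of control RIP signal had 12.5%. Of the 20 members with the highest mean, 8 had 1 to 3 probes. Conversely, 14.6% of the low-input transcripts with 1 probe were members (13 of 89), 8.46% of those with 2 (11 of 130), 4.53% of those with 3 (12 of 265), 3.83% of those with 4 (64 of 1673) and 1.8% of those with 5 (100 of 5560).

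The spread over replicates went the same way in both RIPs. The median SD over replicates of low-input transcripts was 0.56, 0.47, 0.45, 0.37 and 0.35 in Smaug RIPs for 1, 2, 3, 4 and 5 probes, and 0.63, 0.48, 0.45, 0.39 and 0.38 in control RIPs. Their median signal differed less, between 7.13 and 7.21 in Smaug RIPs and between 7.19 and 7.29 in control RIPs. The part of probe number in the members' control signal was not tested. Most members (164) had 4 or 5 probes. These had a median Smaug RIP signal of 7.45 and a median difference, Smaug RIP minus control RIP, of -0.65, against 7.42 and -0.68 for all members, and 10 of them reached the members' level in all 3 control RIP replicates.

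**Figure D5:**
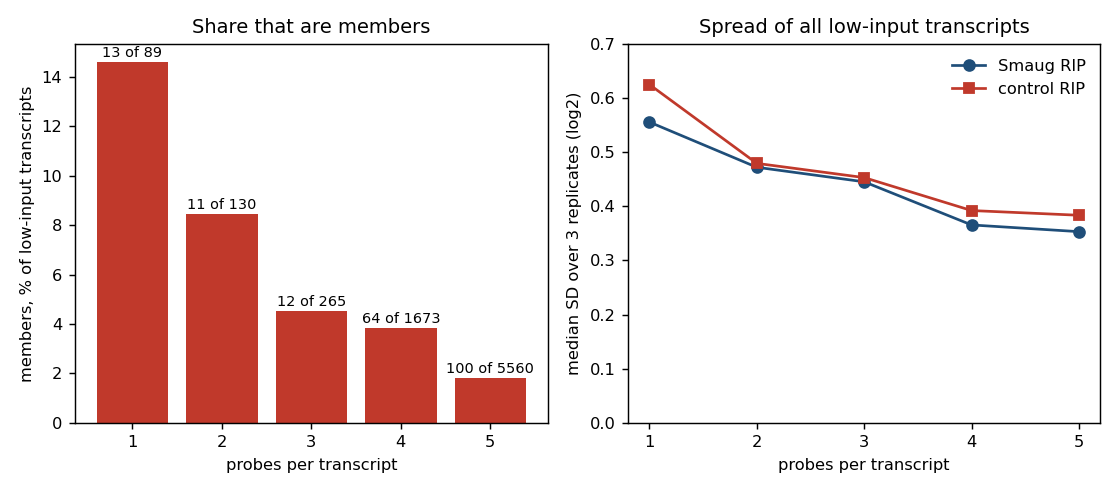
Left, members as a percent of the low-input transcripts (vertical axis from 0) by number of probes (horizontal axis), with counts above the bars. Right, median SD over 3 replicates on the log2 scale of all low-input transcripts in Smaug RIPs (blue) and control RIPs (red). The share falls from 14.6% with 1 probe to 1.8% with 5, and the SD in control RIPs from 0.63 to 0.38.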

How the data were processed

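Microarrays (NimbleGen 4x72K) were hybridized with anchored oligo(dT)-primed cDNA, which the samples' label protocol describes as labelled with Cy3 or Cy5 random nonamers. The study's methods name an indirect labelling protocol for the RIP samples. The authors summarised probes and normalized arrays with the RMA quantile method, and no source used here states if the inputs were normalized jointly with the RIPs. The deposited input values are on a log2 scale, the deposited RIP values are linear intensity, and the number of probes per transcript is deposited as another value. RIP intensities were converted to log2, and 1a and 1b were averaged. The deposited series table held the same values as the array files. Arrays give no count depth, so the number of replicates and probes limits precision. The limma package (version 3.58.1, R 4.3.3; lmFit and a trended eBayes, Benjamini-Hochberg over 15433 transcripts, threshold 0.05) compared 3 Smaug RIPs with 3 control RIPs, and Cy5 with Cy3 within control RIPs. Biological replicates are as labelled. Their separate embryo collections are not described, so p-values measure the spread between these samples. The study's own method, SAM, was not run because it regroups samples. The fits were tested on simulated data. Members, lists and tests were chosen with earlier results of these data known. Transcripts were named by a rule: the 2 with the highest mean control RIP signal, and the 2 highest and 2 lowest in each comparison. Of 15433 identifiers, 44 occurred in the RefSeq gene table (17 with 1 gene), none of them a member. Replicate numbers were checked as pairs. Smaug and control RIPs of one number, each minus its group's mean, correlated at 0.32, 0.06 and 0.20 for replicates 1, 2 and 3 over all transcripts. Over low-input transcripts the values were 0.07, 0.04 and 0.10. Numbers were not used as a block in the reported fit, which takes the RIPs as unpaired although these values were positive. Slides were read from scan names in the files. Slide, dye, normalization, probe number, the rule for members and the leaving out of each replicate were tried as alternatives.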

Additional observations from a re-analysis of the deposited data

How the results depend on the processing

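The count of members called lower in Smaug RIPs moved with the model: 0 as reported, 1 with the replicate block (FBtr0072818, difference -1.62) and 3 with slide as a block. It was 0 under every other alternative run, including each replicate left out, and the count called higher was 0 throughout. Because control RIP values entered the choice, these counts are descriptive in both directions. Same-numbered RIPs share a slide by the scan names. Their deviations correlated positively in all 3 replicates, at over 0.1 for replicates 1 and 3 only. The reported fit left this pairing out, so its count of 0 holds for RIPs taken as unpaired. The cause of the changes in count was not tested. The count of members lower in Cy5 than in Cy3 was 0, and 0 to 2 when a control RIP replicate was left out, the 2 without control RIP replicate 1. The median dye difference (-0.07) had no stable direction: it was -0.39 without control RIP replicate 2 and 0.37 without replicate 3. For 200 chosen on other arrays it was 0.85 (Cy5), -1.02 (Cy3), -0.72 (without control RIP replicate 2) and 0.63 (without replicate 3), which the choice itself sets.

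Other limits were few. With input at or below the 33rd percentile, the members' median Smaug RIP signal was 7.31 in place of 7.42, and 5 in place of 14 reached the level in all 3 control RIP replicates. Taking 400 members gave 63 with 1 to 3 probes, 15.8% in place of 18.0%. After quantile normalization, the held-out median of control RIP replicate 2 was 7.20 in place of 7.32. The alternatives for the count in all 3 replicates, for the probe count and for the held-out reading were chosen after seeing the data. By mean Smaug RIP signal, 0 members were in the top 5% and 1 was in the top 10%.

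The sign of 5 named members turned with the setting, including 2 whose difference lay further below 0 than the members' median. FBtr0078005 (0.24) was at -0.34 with dye as a covariate and at -0.052 to 0.66 with a replicate left out. FBtr0087785 (0.13) was at -0.011 after quantile normalization and at -0.51 to 0.75 with a replicate left out. FBtr0076100 (-0.15) was at -0.54 to 0.13 with a replicate left out. FBtr0100465 (-0.95) was at 0.44 with dye as a covariate and at -1.90 to 0.18 with a replicate left out. FBtr0085126 (-0.84) was at 0.49 with dye as a covariate, at 0.57 on Cy5 arrays only and at -1.52 to 0.43 with a replicate left out. None of these 5 passed the test between Smaug RIPs and control RIPs under any setting run.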
